A study of Mus musculus with 6 samples.

Results

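Cytosolic ribosomal protein genes were followed in mouse neural stem cells that had received the microRNA miR-128. The members were all genes whose symbol is Rpl or Rps with a number and an optional a, l or x ending (a further digit allowed), together with Rplp0, Rplp1, Rplp2 and Rpsa, leaving out the S6 kinase genes and symbols marked as pseudogenes. RefSeq (mouse assembly GRCm38.p6) held 90 such symbols, of which 56 matched a row of the deposited table, 33 of the large and 23 of the small subunit, among 20263 named genes in all. The other 34 symbols, among them Rpl11, Rps6 and Rps4x, had no row matched by accession and are not analysed here. Rps4l is annotated as a transcribed pseudogene and was kept because its symbol meets the rule.

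The cells were neural stem cells from CD-1 albino mouse embryos of stage E14.5, grown as floating neurospheres in proliferating conditions. They were nucleofected, that is transfected by an electric pulse, with a miR-128 mimic (3 arrays) or with miR-Control, a control RNA (3 arrays), and total RNA was taken 72 h later. The series text calls the 3 samples of each group biological replicates and states that these cells do not normally express miR-128. No genotype or other treatment distinguishes the groups. Each RNA was read on its own exon array, and the deposited values are log2 expression values per RefSeq transcript, so a difference of 1 is a doubling.

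A ribosome is built from ribosomal RNA and ribosomal proteins, the large subunit joining amino acids and the small subunit decoding the messenger RNA. Most of the proteins are needed in equal numbers. In mammals the transcripts of ribosomal proteins typically begin with a run of pyrimidines, the terminal oligopyrimidine (TOP) tract. Through it the kinase mTOR and the protein Larp1 set their translation together. Dividing stem cells make ribosomes at a high rate, and free Rpl5 bound with Rpl11 holds back Mdm2 and so stabilises p53 when assembly is disturbed.

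The introduced microRNA is shown first because it is the only designed difference between the groups. The mature sequence of mmu-miR-128-3p in RefSeq (GRCm38.p6), with its seed, bases 2 to 8, in capitals, is encoded at chr1:128202404-128202424 on the plus strand and at chr9:112118644-112118664 on the minus strand.
mmu-miR-128-3p: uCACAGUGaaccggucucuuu

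Promoter windows follow for the 5 members whose unadjusted p was under 0.05, all lower with miR-128, and for Rpl38 and Rps10, which were higher without reaching that p. Each runs from 85 bases before the annotated start to 15 after it, 5′ to 3′ on the gene's strand, from RefSeq (GRCm38.p6). Capitals mark a pyrimidine run of at least 5 bases that touches the 5 bases on either side of the start, and the motif CCGGAAG, which the ETS factor Gabpa binds. The windows are Rpl14 at chr9:120571432-120571531 (plus strand), Rpl31 at chr1:39367766-39367865 (plus), Rpl37 at chr15:5116528-5116627 (plus), Rps15a at chr7:118116133-118116232 (minus), Rps25 at chr9:44407629-44407728 (plus), Rpl38 at chr11:114668495-114668594 (plus) and Rps10 at chr17:27635230-27635329 (minus).
Rpl14: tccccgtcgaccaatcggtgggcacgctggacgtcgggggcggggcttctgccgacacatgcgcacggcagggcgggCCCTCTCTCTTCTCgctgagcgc
Rpl31: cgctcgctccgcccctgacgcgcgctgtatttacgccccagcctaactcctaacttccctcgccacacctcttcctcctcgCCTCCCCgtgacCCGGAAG
Rpl37: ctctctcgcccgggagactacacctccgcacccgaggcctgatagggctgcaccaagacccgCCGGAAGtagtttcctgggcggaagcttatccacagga
Rps15a: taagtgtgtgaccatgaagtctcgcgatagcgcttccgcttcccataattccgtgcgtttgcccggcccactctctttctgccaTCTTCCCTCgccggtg
Rps25: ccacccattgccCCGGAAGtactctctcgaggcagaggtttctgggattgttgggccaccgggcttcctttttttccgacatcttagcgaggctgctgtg
Rpl38: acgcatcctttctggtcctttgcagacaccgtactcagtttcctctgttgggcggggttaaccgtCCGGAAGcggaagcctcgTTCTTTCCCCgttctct
Rps10: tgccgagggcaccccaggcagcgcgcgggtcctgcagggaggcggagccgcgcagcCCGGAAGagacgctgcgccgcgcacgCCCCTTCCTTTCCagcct

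Pyrimidine runs and the Gabpa motif occurred both in windows of genes that were lower and in those of genes that were higher. In the full windows, 250 bases before to 50 after the start, 42 of the 56 members had at least 1 entry, with 53 windows. The motif CCGGAAG or its other-strand form CTTCCGG was in 18 of these 53 windows (34.0%), against 8.86% of all 32851 windows of the same length. A pyrimidine run of 8 or more over the start was in 32.1% of member windows and 9.38% of all windows, and a C at the start followed by 4 pyrimidines in 17.0% against 2.51%. The motif AAGATGGCG of the factor Yy1, searched on both strands, was in 11.3% against 1.40%, the Sp1 motif GGGCGG in 62.3% against 35.7%, the E-box CACGTG in 11.3% against 7.15% and the TATA motif TATAAA in 7.55% against 13.6%. No 2 of these motifs were required to be apart, so their matches can overlap. The 17 members with the Gabpa motif had a median log2 fold change of -0.14, 13 of them lower, and the 25 without it had a median of -0.040, 16 lower; without miR-Control replicate 1 these medians were -0.08 and -0.0023, without miR-Control replicate 3, -0.16 and -0.073, without miR-128 replicate 1, -0.10 and 0.0091, and without miR-128 replicate 2, -0.16 and -0.083. No test was made of this difference.

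No row of the whole table passed the test, limma's moderated test with Benjamini-Hochberg adjustment over all 32025 rows at 0.05 (0 called, 0.0% of rows), while 2291 rows had an unadjusted p under 0.05. With limma's array weights 24 rows passed and among rows above the median 4, none of them the row of a member. Array medians ran from 7.40 to 7.54. On the first principal component (35.4% of the variance) miR-Control replicate 3 had a score of 42.5, far from the remaining 5 arrays at -18.7 to -0.23, so results are also given without it. Precursor rows of Mir128-1 and Mir128-2 overlapped between the groups, at log2 values of 7.40 to 8.07 in controls and 7.70 to 8.47 with miR-128 for Mir128-1; such rows need not read a mature mimic and check nothing on its delivery.

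Ribosomal protein genes had slightly lower log2 values with miR-128. Of the 56 members 39 were lower (69.6%) and 17 higher, where 43.8% of all named genes, each taken by its row of highest mean, were lower. After centring the arrays on their medians 44 were lower, and after quantile normalization 41. The median log2 fold change over all rows moved down as well, from 0.022 to -0.0057 and 0.00084. The share of named genes lower under these 2 settings is not given here. Many members near 0 took either sign under other settings, and so did some with larger differences, such as Rpl29, Rpl22, Rpl10 and Rps7. Their median log2 fold change was -0.067, with quartiles of -0.14 and 0.018, against a median of 0.019 over all named genes. In bulk RNA, fewer cells of a type and less RNA per cell cannot be told apart. The 5 members with an unadjusted p under 0.05 were all lower, 8.93% of members against 3.39% of named genes, and no member reached that p on the higher side, against 3.74% of named genes. These counts rest on the row of highest mean and on all 6 arrays. A further Rps27a row was higher with an unadjusted p of 0.00424 in limma. Without miR-Control replicate 1, 3 members were lower and 1 higher at that threshold, against 668 and 783 of 20263 named genes. Groups did not overlap, with all 3 miR-128 arrays below all 3 controls, in 7 members (12.5%, against 5.27% of named genes) and with all above in 1 member, against 6.87% of named genes. None of the 56 passed over all rows, with adjusted p from 0.531 to 1.00 in limma. The size was small: 29 members differed by less than 0.1 on the log2 scale, and 34 had a 95% interval that lay wholly between -0.5 and 0.5.

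**Figure D1:**
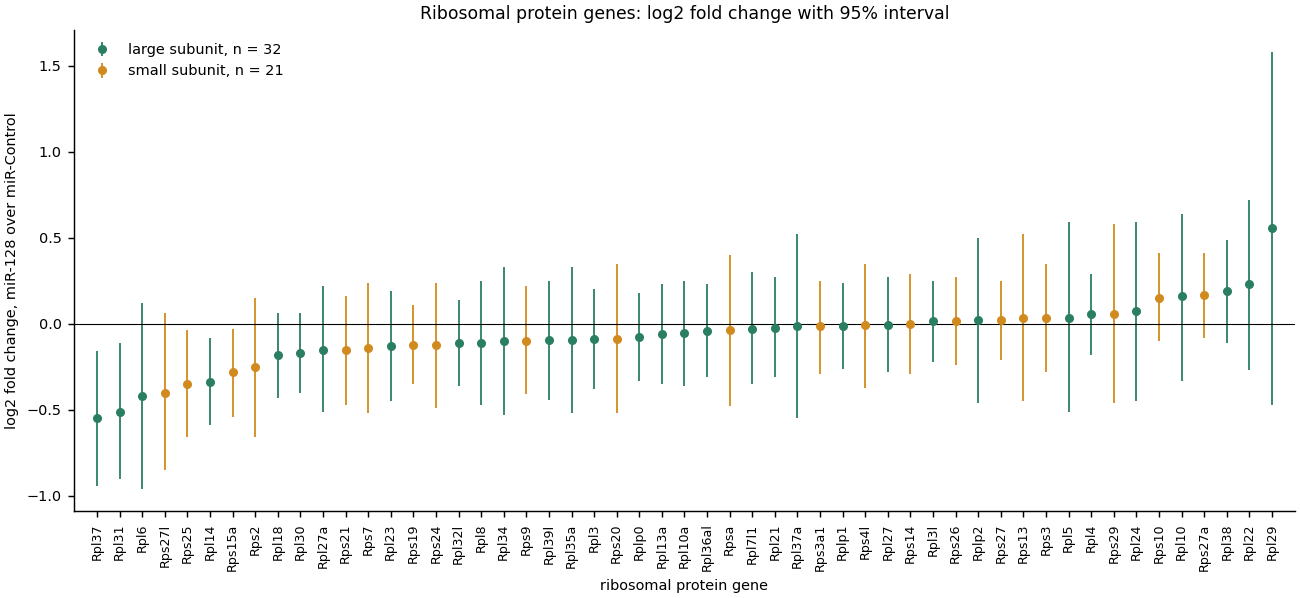
Each point is the log2 fold change (miR-128 over miR-Control, 3 arrays each) of 1 of 53 ribosomal protein genes, green for 32 large and orange for 21 small subunit genes, with limma's 95% interval as the bar and genes in order of fold change. The points run from -0.55 for Rpl37 to 0.56 for Rpl29, and 36 of the 53 drawn lie below 0.

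The shift was not equally strong on the 3 miR-128 arrays. Relative to each gene's control mean, 42 of 56 members were below it on miR-128 replicate 1, 29 on replicate 2 and 34 on replicate 3, and in the controls 21, 29 and 31 were. Of the 20263 named genes, 10369, 9083 and 8366 were below theirs on miR-128 replicates 1 to 3. On miR-Control replicates 1 to 3, 11145, 10491 and 9586 named genes were. The mean relative log2 level of the members was 0.077, -0.018 and -0.059 on miR-Control replicates 1 to 3 and -0.12, -0.0028 and -0.11 on miR-128 replicates 1 to 3. So miR-128 replicate 2 lay within the range of the controls, and the groups overlapped. Leaving out miR-128 replicate 1 or replicate 3 reduced the members with an unadjusted p under 0.05 from 5 to 2 in each case, while the named genes that were lower with such a p went from 3.39% to 1.67% and to 2.70%. Without miR-Control replicate 3, 40 members were lower with a median of -0.093 and 6 had such a p, all lower, against 41.0% of named genes lower and 6.72% lower with such a p.

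Among large subunit proteins, Rpl37, Rpl14 and Rpl31 had an unadjusted p under 0.05. Rpl37, a zinc-binding protein that sits deep in the large subunit, had log2 values of 9.21, 9.69 and 9.44 in controls and 8.87, 9.19 and 8.63 with miR-128. Every miR-128 array was under the lowest control, replicate 2 only just; the log2 fold change was -0.55 (SE 0.17, limma adjusted p = 0.531). Rpl14 had 11.04, 11.08 and 11.23 in controls and 10.71, 10.92 and 10.71 with miR-128, a log2 fold change of -0.34 (SE 0.11, limma adjusted p = 0.568). Its groups did not overlap, and the difference stayed between -0.40 and -0.28 when any 1 array was left out. Rpl31, a protein near the exit of the peptide tunnel, had 10.19, 10.14 and 9.78 in controls and 9.42, 9.88 and 9.30 with miR-128, a log2 fold change of -0.51 (SE 0.17, limma adjusted p = 0.584). Here the groups overlapped, since miR-Control replicate 3 lay below miR-128 replicate 2. The reference lists 24 pseudogene symbols for Rpl31 and 1 each for Rpl37 and Rpl14, and how far array probes also bind such copies was not tested.

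**Figure D2:**
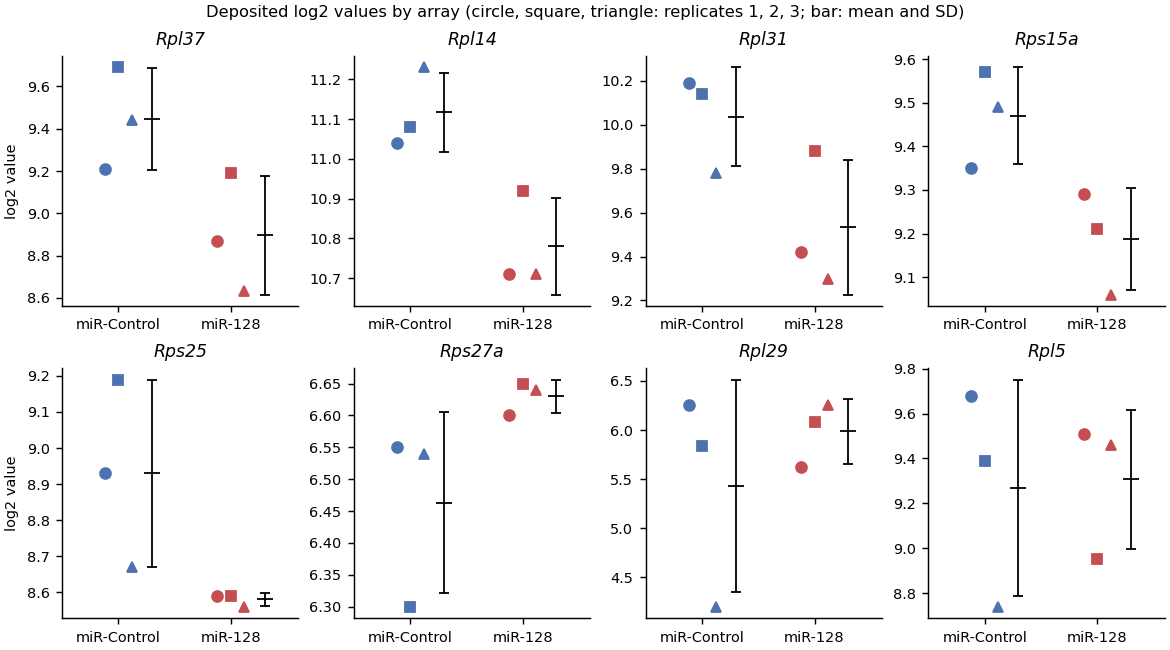
Deposited log2 values of 8 ribosomal protein genes on the 6 arrays, blue for miR-Control and red for miR-128, with circle, square and triangle for replicates 1, 2 and 3 and a black bar for the mean and SD of each group; axes do not start at 0. Rpl37, Rpl14, Rps15a and Rps25 show no overlap downwards and Rps27a none upwards, while Rpl29 and Rpl5 are spread widely by a low miR-Control replicate 3.

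Further large subunit genes were lower by smaller or less even amounts. Rpl6 was at -0.42 (SE 0.24), its control values of 7.34, 8.09 and 7.31 being spread as widely as the difference, and without miR-Control replicate 2 the difference was -0.17. Rpl18 was at -0.18 (SE 0.11) and Rpl30 at -0.17 (SE 0.10). The Rpl30 groups did not overlap, at 10.81, 10.66 and 10.77 against 10.59, 10.65 and 10.50.

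Next in size came Rpl27a at -0.15, Rpl23 at -0.13, Rpl32l at -0.11 and Rpl8 at -0.11, none with an unadjusted p under 0.3. Rpl3, which lines the way into the peptidyl transferase centre, was at -0.090, with 12.43, 12.34 and 12.04 in controls and 12.09, 12.25 and 12.19 with miR-128. The remaining lower members of the large subunit were Rpl34, Rpl39l, Rpl35a, Rplp0, Rpl13a, Rpl10a, Rpl36al, Rpl7l1, Rpl21, Rpl37a, Rplp1 and Rpl27, at -0.10 to -0.0045. These differences were smaller than their standard errors.

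On the higher side of the large subunit no gene reached an unadjusted p under 0.05. Rpl29 had the largest fold change, 0.56 (SE 0.45, 95% interval -0.47 to 1.58), from 6.25, 5.84 and 4.20 in controls and 5.62, 6.08 and 6.26 with miR-128. That value rested on miR-Control replicate 3, without which it was -0.057. Rpl22, an RNA-binding protein on the outer surface of the subunit, behaved alike, at 11.20, 11.06 and 10.27 in controls and 11.11, 11.05 and 11.05 with miR-128, and its log2 fold change of 0.23 (SE 0.22) became -0.061 without miR-Control replicate 3. Rpl38 was at 0.19 (SE 0.13) and Rpl10, which completes the subunit late in its maturation, at 0.16 (SE 0.21), the latter turning to -0.0084 without miR-Control replicate 2. Rpl24 at 0.072, Rpl4 at 0.056, Rpl5 at 0.037, Rplp2 at 0.020 and Rpl3l at 0.017 made up the rest.

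Proteins of the stalk, which recruits the translation factors that hydrolyse GTP, showed no difference beyond their spread. Rplp0, the base of the stalk, had 10.90, 10.76 and 10.59 in controls and 10.71, 10.66 and 10.65 with miR-128, a log2 fold change of -0.077 (95% interval -0.33 to 0.18). Rplp1 was at -0.011 (95% interval -0.26 to 0.24). Rplp2 was at 0.020 (95% interval -0.46 to 0.50), with miR-Control replicate 1 high at 11.37 and all other arrays between 10.52 and 10.95. Rpl5, the partner of Rpl11 in the p53 checkpoint, had 9.68, 9.39 and 8.74 in controls and 9.51, 8.95 and 9.46 with miR-128, a log2 fold change of 0.037 (95% interval -0.51 to 0.59), and without miR-Control replicate 3 it was at -0.23. An unnamed row of the table carried the same values as the Rpl5 row.

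Among small subunit proteins, Rps15a and Rps25 had an unadjusted p under 0.05, both lower. Rps15a had log2 values of 9.35, 9.57 and 9.49 in controls and 9.29, 9.21 and 9.06 with miR-128, a log2 fold change of -0.28 (SE 0.11, limma adjusted p = 0.652). Rps25, which several viral and cellular internal ribosome entry sites need, had 8.93, 9.19 and 8.67 in controls and 8.59, 8.59 and 8.56 with miR-128, a log2 fold change of -0.35 (SE 0.14, limma adjusted p = 0.652). The groups did not overlap in either gene, and the Rps25 controls varied more (SD 0.26) than its miR-128 arrays (SD 0.014).

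Rps19, the gene most often mutated in Diamond-Blackfan anaemia, had 10.12, 10.10 and 10.14 against 10.02, 9.90 and 10.09, a log2 fold change of -0.12 (SE 0.10, unadjusted p of 0.274). Its groups did not overlap, although the difference was small.

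Rps2 was at -0.25 (SE 0.18), with 12.40, 12.36 and 12.66 in controls, 12.62 on miR-128 replicate 2 and 12.04 or less on the other two. The array at 12.62 stood above the other miR-128 arrays in Rps24, at 9.64, 10.13 and 9.51 against 9.89, 9.96 and 9.80 in controls. Other lower members of the small subunit were Rps21 at -0.15, Rps7 at -0.14, Rps24 at -0.12, Rps9 at -0.10, Rps20 at -0.089, Rpsa at -0.038, Rps3a1 at -0.015 and Rps4l at -0.0078. Rpsa, the ribosomal form of the laminin receptor, turned to 0.17 without miR-Control replicate 1.

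On the higher side of the small subunit Rps27a, a fusion of ubiquitin with a ribosomal protein, was the only member with all 3 miR-128 arrays above the controls. Its chosen row had 6.55, 6.30 and 6.54 in controls and 6.60, 6.65 and 6.64 with miR-128, a log2 fold change of 0.17 (SE 0.11, limma adjusted p = 0.855). A further Rps27a row of lower mean had 5.93, 5.83 and 6.02 against 6.23, 6.40 and 6.38, a log2 fold change of 0.41 (SE 0.11, limma adjusted p = 0.453; unadjusted p of 0.00424), so both rows pointed upwards with unequal size. Rps10 was at 0.15 (SE 0.11), Rps29 at 0.057, Rps3 at 0.036, Rps13 at 0.034, Rps27 at 0.020, Rps26 at 0.018 and Rps14 at 0.00096. The Rps27 row is a non-coding transcript of that gene.

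Proteins of ribosomal origin with other symbols lay on both sides. Fau, whose product is a ubiquitin-like protein fused to a small subunit protein, had 11.37, 10.94 and 11.42 in controls and 11.00, 11.46 and 11.29 with miR-128, a log2 fold change of 0.0053 (SE 0.17). Rack1, a scaffold bound to the small subunit, had 12.84, 12.82 and 12.76 against 12.58, 12.73 and 12.71, a log2 fold change of -0.13 (SE 0.10, limma adjusted p = 0.891), with all miR-128 arrays below the controls.

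Paralogs were compared where both copies had a row. Rpl3 was at -0.090 and Rpl3l, the heart and skeletal muscle form, at 0.017 (95% interval -0.22 to 0.25). Rps27 was at 0.020 (95% interval -0.21 to 0.25) and Rps27l, a p53-responsive copy, at -0.40 (SE 0.20, 95% interval -0.85 to 0.062), with 8.84, 8.35 and 8.19 in controls and 8.13, 8.33 and 7.72 with miR-128. In Rps27l miR-Control replicate 1 was high and miR-128 replicate 3 low, and the other 4 arrays lay between 8.13 and 8.35. Within a pair the difference of the fold changes was not tested, and near-identical copies can share probes.

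Large and small subunit genes were both lower on balance, and how they compared depended on the arrays used. Of the large subunit genes 24 of 33 were lower, with a median log2 fold change of -0.057, and of the small subunit genes 15 of 23, with a median of -0.089. Without miR-Control replicate 1 the large subunit had 19 of 33 lower with a median of -0.0094 and the small subunit 17 of 23 with -0.051. Without miR-Control replicate 3 the medians were -0.088 and -0.10, and without miR-128 replicate 2 they were -0.10 and -0.08. The large minus small difference of mean relative level was 0.053, 0.053 and -0.11 on miR-Control replicates 1 to 3 and 0.030, 0.0029 and -0.00055 on miR-128 replicates 1 to 3. Its change from control to miR-128 was 0.011, against an SD of 0.091 over the 3 controls. The outlying value was that of miR-Control replicate 3, on which large subunit genes had a mean relative level of -0.10 and small subunit genes 0.0034. Without that array both controls lay above all 3 miR-128 arrays, and the change was -0.042. Without miR-Control replicate 1 or miR-Control replicate 2 the change was 0.037, so its sign depended on single controls. The SD was 0.016 over the miR-128 arrays and 0.066 pooled over both groups, and each of these changes was smaller than the pooled SD. The difference between subunits was not tested.

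**Figure D3:**
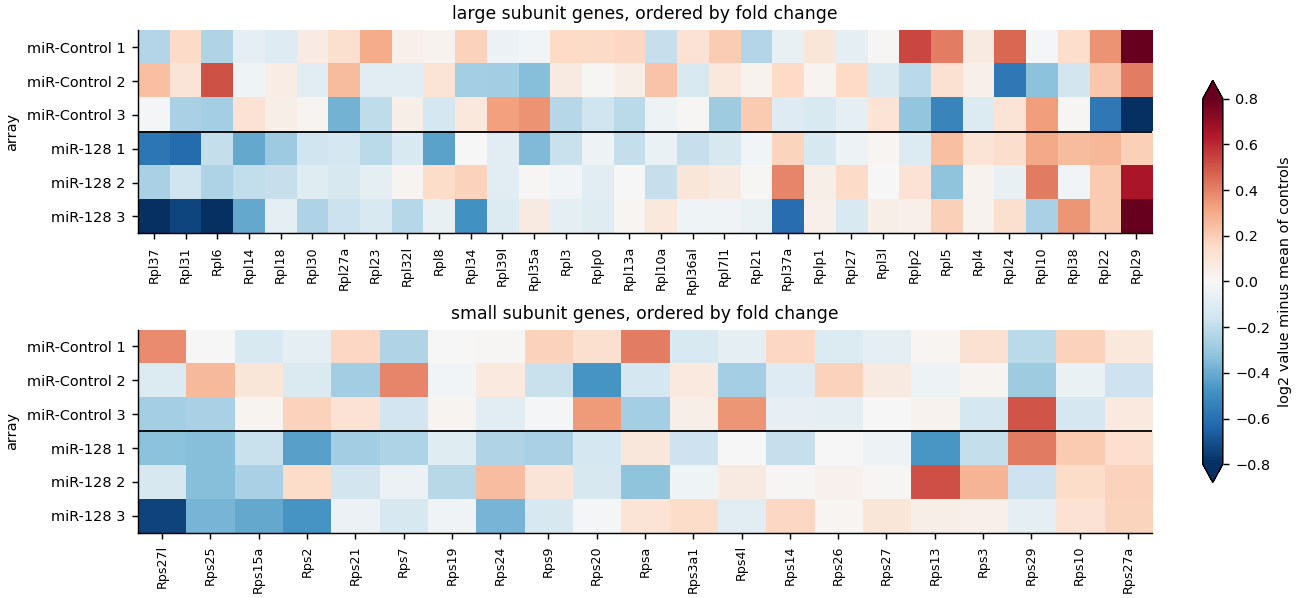
Colour gives the log2 value of 53 members on each array minus the gene's mean over the 3 controls, red for higher and blue for lower, with large subunit genes above and small subunit genes beneath, ordered from the lowest to the highest fold change; colours saturate at 0.8. Blue columns on the left are uneven between the 3 miR-128 arrays, and miR-Control replicate 3 is low for Rpl29, Rpl22 and Rpl5.

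The spread of members among themselves was read on each array, from values relative to each gene's mean over the 3 controls. Each control array is part of that mean, which narrows its own spread. The SDs are therefore not comparable between the groups. The SD over the 56 members around their common mean was 0.21, 0.21 and 0.27 on miR-Control replicates 1 to 3 and 0.23, 0.21 and 0.29 on miR-128 replicates 1 to 3. Rpl29 was farthest below the common mean on miR-Control replicate 3, at -1.17, and farthest above it on miR-Control replicate 1, miR-128 replicate 2 and miR-128 replicate 3, at 0.74, 0.66 and 0.93. On miR-128 replicate 1 Rpl31 was lowest at -0.50 and on miR-128 replicate 3 Rpl37 at -0.71. Within groups the median SD of a member was 0.19, against 0.15 over all named genes, and 0.068 for Rps19, the steadiest, against 0.80 for Rpl29.

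Several members had more than 1 row, 6 in all, and their rows did not always give the same size. Rps24 was at -0.12 in the row of highest mean and at -0.39 (SE 0.18, limma adjusted p = 0.728) in 2 further rows that share identical values. Rpl30 was at -0.17 and -0.14, and Rpl34 at -0.10 and -0.13. The 2 Rpl38 rows were identical, and Rpl3l was at 0.017 and -0.043. With the mean of a gene's distinct rows in place of its highest row, 6 members had an unadjusted p under 0.05, and 2291 rows of the whole table did. The directions of these 6 are not given here.

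Small nucleolar RNAs, which guide the chemical modification of ribosomal RNA, are encoded in introns of many ribosomal protein genes. Of the 56 members, 20 had in RefSeq at least 1 such gene within their span, for instance Rpl13a with Snord32a, Snord33, Snord34 and Snord35a, and Rps3 with Snord15a and Snord15b. Members with such a gene had a median log2 fold change of -0.073, 14 of 20 lower, and those without one -0.065, 25 of 36 lower. With and without such a gene, the medians were -0.16 and -0.068 without miR-Control replicate 3, -0.10 and -0.047 without miR-128 replicate 3, and -0.016 and -0.046 without miR-Control replicate 1. Which of the 2 was lower thus depended on the arrays used, and no test was made of the difference.

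Factors that build ribosomes were mostly lower. Of 64 measured genes of ribosomal RNA processing and subunit assembly 55 were lower (85.9%, against 43.8% of named genes), with a median log2 fold change of -0.21. An unadjusted p under 0.05 was reached by 16 on the lower side (of 64, against 3.39% of named genes) and by none on the higher side (3.74% of named genes). Gar1, a core protein of the particles that convert uridine to pseudouridine, had 10.14, 9.78 and 9.82 in controls and 9.29, 9.28 and 9.19 with miR-128, a log2 fold change of -0.66 (SE 0.12, limma adjusted p = 0.280). Heatr1, a factor of the small subunit processome, was at -0.56 (SE 0.11, limma adjusted p = 0.315). No test was made of the difference between this list and the ribosomal proteins. These counts moved with single arrays, as did those of all named genes. Without miR-Control replicate 3, 33 assembly genes were lower with such a p, against 6.72% of named genes, and the median was -0.34. There were 8 without miR-Control replicate 1 (3.30% of named genes), 7 without miR-Control replicate 2 (2.48%), with a median of -0.13, and 6 without miR-128 replicate 1 (1.67%).

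**Figure D4:**
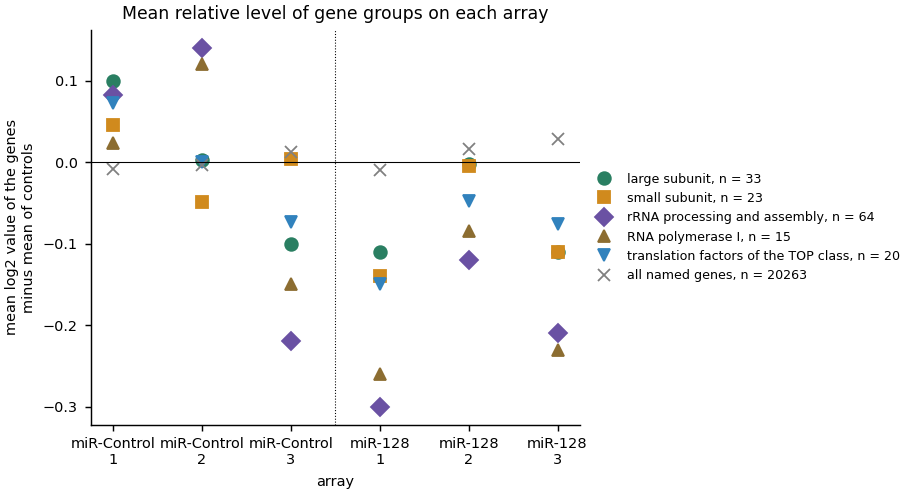
Mean log2 value of each gene group on each array minus its mean over the 3 controls, with 1 symbol per group and array; the dotted line separates miR-Control from miR-128. Assembly factors span 0.14 to -0.30 and ribosomal proteins 0.10 to -0.14, and on miR-Control replicate 3 the assembly and RNA polymerase I groups lie at -0.22 and -0.15, between values seen with miR-128.

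RNA polymerase I, which transcribes the large ribosomal RNA precursor, had 13 of 15 measured genes lower (86.7%, against 43.8% of named genes), with a median of -0.13. That median was -0.058 without miR-128 replicate 1, -0.077 without miR-Control replicate 2 and -0.25 without miR-128 replicate 2. Polr1b was at -1.03 (SE 0.13, limma adjusted p = 0.201) and Rrn3, its initiation factor, at -0.27 (SE 0.12, limma adjusted p = 0.685), and these 2 had an unadjusted p under 0.05 (13.3%, against 3.39% of named genes on the lower side). There were 6 such genes without miR-Control replicate 3, against 6.72% of named genes. There was 1 without miR-Control replicate 1, miR-Control replicate 2, miR-128 replicate 1 or miR-128 replicate 2. The shares of named genes were then 3.30%, 2.48%, 1.67% and 3.31%.

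Dedicated chaperones and importers of ribosomal proteins together with the p53 checkpoint had 14 of 19 lower (73.7%, against 43.8% of named genes) and a median of -0.10. An unadjusted p under 0.05 was reached by 4, all lower (21.1%, against 3.39% of named genes). Without miR-Control replicate 3, 18 of 19 were lower with a median of -0.24, against 41.0% of named genes lower. Such genes then numbered 9, against 6.72% of named genes. Without miR-Control replicate 2 or miR-128 replicate 1 there were 2 such genes, against 2.48% and 1.67% of named genes. Without miR-128 replicate 2 the median was -0.16. Rrs1, which helps to bring Rpl5 and Rpl11 into the large subunit, was at -0.49 (SE 0.12, limma adjusted p = 0.393), Tsr2, the chaperone of Rps26, at -0.50 (SE 0.14, limma adjusted p = 0.482), Nob1, the nuclease that finishes the small subunit RNA, at -0.31 (SE 0.12) and the p53 target Cdkn1a at -0.25 (SE 0.10). Rps26 itself, the client of Tsr2, was at 0.018 (95% interval -0.24 to 0.27).

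Translation factors and binding proteins whose transcripts carry a TOP tract had 15 of 20 measured genes lower (against 43.8% of named genes), with a median of -0.067. Without miR-Control replicate 1 the median was -0.0051 with 11 of 20 lower, where the ribosomal proteins were at -0.045 with 36 of 56 lower, and without miR-128 replicate 2 it was -0.12. Eef1d, an exchange factor subunit of elongation factor 1, was at -0.82 (SE 0.22, limma adjusted p = 0.456) and Npm1, a nucleolar chaperone, at -0.26 (SE 0.11), while Eif2s3x, a subunit of initiation factor 2, was at 0.31 (SE 0.11, limma adjusted p = 0.581). These were the 3 genes of that list with an unadjusted p under 0.05, 2 of 20 being lower, against 3.39% of named genes. The regulators of TOP translation had 7 of 16 lower and a median of 0.024, with Cnbp at -0.19 and Eif4ebp1 at -0.14, and none reached an unadjusted p under 0.05. Without miR-Control replicate 3, 11 of these 16 were lower, and without miR-128 replicate 3, 12, so their direction depended on single arrays. Of factors known to act on transcription of these genes, 4 of 10 were lower, with a median of 0.053, Sp1 at 0.25 and E4f1 at -0.13.

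Marker genes were read beside these values. Of the 20263 named genes 8876 were lower (43.8%) and 11387 higher, so a majority of higher markers had the direction of named genes at large. Over the 6 arrays the neural stem cell marker Sox2 lay at log2 values of 11.69 to 12.41 and Nes at 10.61 to 11.44, well over the array medians. Of 14 stem cell and radial glia markers 5 were lower and 9 higher, with summed log2 levels of 146.4 to 147.9 in controls and 146.5 to 148.6 with miR-128, and Fabp7 was at -0.30 (SE 0.11) and Hes5 at 0.33 (SE 0.15). The oligodendrocyte lineage list had 10 of 12 markers higher, with sums of 97.5 to 99.5 in controls and 99.9 to 101.3 with miR-128, and Cspg4 at 0.35 (SE 0.14). Astrocyte markers had 6 of 8 higher, with sums of 67.0 to 67.8 and 67.7 to 68.6, Slc1a2 at 0.47 (SE 0.13) and S100b at 0.32 (SE 0.11). The remaining pair, Gja1 at -0.29 and Aldoc at -0.19, had all miR-128 arrays below all controls, against 5.27% of named genes. Slc1a2 and S100b had all miR-128 arrays above all controls, against 6.87% of named genes.

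Neuron markers had 6 of 13 lower, with sums of 97.9 to 98.6 in both groups, Gap43 at -0.41 (SE 0.13) and Dcx at 0.24 (SE 0.11). Microglia markers had 9 of 10 higher, with sums of 63.5 to 64.9 in controls and 64.1 to 64.9 with miR-128, Aif1 at 0.16 and P2ry12 at 0.14. Vascular and mesenchymal markers had 6 of 11 higher, with sums of 72.1 to 73.7 and 71.8 to 73.6, Tek at -0.17 and Col1a1 at 0.12. The majority direction of these 3 lists turned when an array was left out: 6 of 10 microglia markers were lower without miR-Control replicate 1, 6 of 11 vascular markers without miR-Control replicate 1, miR-Control replicate 2 or miR-128 replicate 2, and 7 of 13 neuron markers without miR-128 replicate 2. These array values have no zero, so absence of a marker cannot be read from them. The part of these markers in the ribosomal protein values was not tested.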

How the data were processed

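The deposited log2 values come from RMA in the affy software, per the submitters' processing notes (versions are not listed). RMA subtracts background, puts arrays on a common distribution and summarises probes, and tends to shrink fold changes. The deposited arrays still differed in median and in the distance between their quartiles. That distance was smallest on miR-Control replicate 3, at 2.87, and largest on miR-Control replicate 2, at 3.22. Rows are RefSeq accessions; how probes were grouped, on which genome build, and the signal over background are not given.

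Accessions were matched without versions to the RefSeq table of GRCm38.p6, which named 25343 of 32025 rows. Each gene was taken by its row of highest mean over 6 arrays. All rows were fitted with limma 3.58.1 (lmFit, eBayes, R 4.3.3), unpaired and two-sided, with Benjamini-Hochberg adjustment over all rows and a threshold of 0.05. The procedure was tested on simulated data with independent noise and no outlying array. Such data do not cover an array like miR-Control replicate 3. How often changes as small as those of most members were recovered is not given here. The number of arrays limits the precision. Members, gene lists and tests were chosen with earlier results of these data known, so counts over members stand beside those of all named genes, without a test. Values are given for members and, of each other list, for the 2 genes of smallest p, plus Fau and Rack1; a few genes are counted but not reported singly here, nor drawn. Nob1, Cdkn1a, Npm1, Nes, Sox2, Gja1 and Aldoc are named in addition, after their values were seen. Probes differ in response, so levels are not compared between genes.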

Additional observations from a re-analysis of the deposited data

How the results depend on the processing

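Alternatives were quantile normalization, centring arrays on medians, a filter to rows above the median, an intensity trend, array weights, a replicate block, the mean of a gene's distinct rows, leaving out paralogs and leaving out each array. Rows passing over the whole table numbered 0 by default, 4 among rows above the median and 24 with array weights. Members with an unadjusted p under 0.05 went from 5 to 9 with array weights, 8 with the replicate block and 2 to 6 when single arrays were left out, while rows of the whole table with such a p went from 2291 to 4577, 2544 and 1285 to 3981. Members lower numbered 33 to 44 of 56, 33 of the 43 above the median and 34 of the 50 without paralogs. The 50 still held Rpl32l. The median log2 fold change of members lay between -0.12 and -0.045, and that over all rows between -0.0057 and 0.049. When single arrays were left out, 41.0% to 47.8% of named genes were lower. That share was not counted under the other alternatives. No member passed under any alternative, the lowest adjusted p in limma being 0.141, while Polr1b passed among rows above the median (limma adjusted p = 0.0327) and with array weights (limma adjusted p = 0.0453). Replicate numbers were not shown to pair the arrays. Same-numbered arrays correlated at -0.00278, 0.173 and 0.0515 in their deviations from the group means, and not every array correlated best with its own number. With so few arrays, and miR-Control replicate 3 far from the rest, these correlations cannot exclude a pairing.

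Of 89 genes followed singly, 55 kept their direction in all alternatives run. With array weights the sign turned for Fau at -0.075, Rpl10a at 0.0071, Rpl21 at 0.11, Rpl22 at -0.0024, Rpl24 at -0.093, Rpl27 at 0.018, Rpl29 at -0.07, Rpl37a at 0.083, Rpl5 at -0.19, Rplp2 at -0.28, Rps13 at -0.072, Rps14 at -0.13, Rps3 at -0.084 and Rps4l at 0.087. It turned after centring for Fau at -0.023, Rpl3l at -0.011, Rplp2 at -0.0083, Rps14 at -0.027, Rps26 at -0.01 and Rps27 at -0.0084, and after quantile normalization for Rpl3l at -0.036, Rplp1 at 0.035, Rps13 at -0.014 and Rps26 at -0.017. Where leaving out 1 array turned the sign, the log2 fold changes ranged from -0.15 to 0.13 for Fau, -0.0084 to 0.36 for Rpl10, -0.15 to 0.06 for Rpl10a, -0.16 to 0.024 for Rpl13a, -0.14 to 0.081 for Rpl21, -0.061 to 0.41 for Rpl22, -0.24 to 0.015 for Rpl23, -0.21 to 0.30 for Rpl24, -0.083 to 0.077 for Rpl27, -0.057 to 0.97 for Rpl29, -0.24 to 0.10 for Rpl34, -0.26 to 0.088 for Rpl35a, -0.11 to 0.033 for Rpl36al, -0.22 to 0.29 for Rpl37a, -0.23 to 0.071 for Rpl39l, -0.039 to 0.071 for Rpl3l, -0.23 to 0.24 for Rpl5, -0.17 to 0.075 for Rpl7l1, -0.24 to 0.049 for Rpl8, -0.073 to 0.046 for Rplp1, -0.14 to 0.29 for Rplp2, -0.21 to 0.28 for Rps13, -0.084 to 0.09 for Rps14, -0.32 to 0.08 for Rps20, -0.31 to 0.0022 for Rps24, -0.036 to 0.11 for Rps26, -0.017 to 0.055 for Rps27, -0.12 to 0.31 for Rps29, -0.08 to 0.15 for Rps3, -0.10 to 0.059 for Rps3a1, -0.15 to 0.17 for Rps4l, -0.26 to 0.053 for Rps7, -0.17 to 0.17 for Rpsa and -0.09 to 0.24 for Sox2. None of these genes passed under any of those settings, and the cause was not tested.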
